A study of Mus musculus with 40 samples.

Results

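Expression of 10 genes that act next to the B cell receptor was followed in spleen B cells of mice with and without Bank1, before and during culture with CpG. The genes were chosen by name, with earlier results of these data known. The list comprised the kinases Btk, Syk and Prkcb, the adaptor Blnk, the exchange factor Vav1, and the brakes Dok3, Sla, Ptpn6, Inpp5d and Csk. They were 10 of 19057 genes with a probe on the array, and all 10 were among the 9483 genes that passed a filter on detected signal. Where a gene had more than 1 probe, the probe with the highest mean of the authors' values over the 40 arrays stood for it. Levels are given as normalized log2 intensity, so a difference of 1 is a doubling, and levels of different probes were not compared with each other.

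The 8 groups were Bank1-/- cells at 0, 6, 24 and 48 h and WT cells at the same times, with 5 biological replicates each. All cells came from C57BL/6 mice, the Bank1-/- line after 9 generations of backcrossing, and for WT the labels mention littermates as well as C57BL/6J mice that were bought, so the source of each WT array is not known. Negative selection gave B cells, typically with more than 95% of cells B220+CD3-. The 0 h groups were labelled as controls and all later groups had been cultured with CpG, so changes after 0 h combine CpG with time in culture. In these bulk samples, fewer cells of a type and less RNA per cell cannot be told apart.

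When antigen binds the B cell receptor, Src-family kinases and Syk phosphorylate it, the adaptor BLNK is recruited, and BTK, VAV1 and a phospholipase assemble there, after which protein kinase C beta carries the signal to NF-kB. Brakes set the threshold of this relay: CSK phosphorylates the inhibitory tyrosine of Src-family kinases, SHP-1 (from Ptpn6) removes phosphate from tyrosines, and SHIP1 (from Inpp5d) removes a phosphate from the membrane lipid that holds BTK. DOK3 is an adaptor that brings SHIP1 to the relay, and SLAP (from Sla) is an adaptor that lowers the amount of antigen receptor on lymphocytes. CpG is bacterial-type DNA sensed by Toll-like receptor 9, and BANK1 is a B cell scaffold protein linked to both kinds of receptor.

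Promoter sequences are shown for Dok3, Inpp5d and Btk, whose levels followed nearly one course over the 8 groups, and for Blnk, whose level did not. Pearson's r over the 8 group means was 0.99 for Dok3 with Inpp5d and 0.98 for Btk with each of them, whereas Blnk with these 3 genes gave -0.02 to 0.12; the groups share their time points, so these are descriptions. Each sequence holds the 250 bases before the start that the RefSeq promoter table gives for the gene (GRCm38.p6), read in the direction of transcription. Capitals mark 2 motifs searched on both strands: GGAAGT, a core bound by ETS factors, and ATGCAAAT, the octamer bound by Oct factors. The Dok3 sequence lies at chr13:55528539-55528788, minus strand, that of Inpp5d at chr1:87620062-87620311, plus strand, that of Btk at chrX:134583141-134583390, minus strand, and that of Blnk at chr19:40994222-40994471, minus strand.
Dok3: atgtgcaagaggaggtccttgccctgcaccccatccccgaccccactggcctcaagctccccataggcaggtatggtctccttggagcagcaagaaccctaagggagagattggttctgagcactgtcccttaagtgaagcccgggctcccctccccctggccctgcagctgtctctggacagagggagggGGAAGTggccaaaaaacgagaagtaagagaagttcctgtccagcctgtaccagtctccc
Inpp5d: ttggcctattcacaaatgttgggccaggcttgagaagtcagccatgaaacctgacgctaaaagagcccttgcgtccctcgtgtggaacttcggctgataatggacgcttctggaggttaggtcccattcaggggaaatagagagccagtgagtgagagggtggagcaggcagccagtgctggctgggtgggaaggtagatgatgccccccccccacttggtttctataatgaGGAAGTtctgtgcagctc
Btk: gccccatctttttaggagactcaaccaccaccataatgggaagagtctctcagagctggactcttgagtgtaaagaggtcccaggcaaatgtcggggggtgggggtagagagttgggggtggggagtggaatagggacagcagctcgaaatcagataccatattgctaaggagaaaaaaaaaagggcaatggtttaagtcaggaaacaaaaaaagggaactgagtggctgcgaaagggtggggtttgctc
Blnk: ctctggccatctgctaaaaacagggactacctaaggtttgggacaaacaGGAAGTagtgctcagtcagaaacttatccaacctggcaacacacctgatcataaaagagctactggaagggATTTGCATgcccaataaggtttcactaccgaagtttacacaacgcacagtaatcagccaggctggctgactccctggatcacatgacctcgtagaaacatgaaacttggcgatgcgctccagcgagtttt
The ETS core began at position -59 in Dok3, -18 in Inpp5d and -201 in Blnk, with -1 the last base before the start, and these letters were not in the Btk window. An octamer began at -130 in Blnk. Of 9 members found in the table, 5 held the ETS core (Blnk, Dok3, Inpp5d, Ptpn6 and Vav1), which 19.7% of all 32851 promoters also held over the same length. The octamer stood in Blnk and Prkcb, and in 1.6% of all promoters. A spaced NF-kB motif, GGG and CC with any 5 bases between, stood in Csk, Prkcb, Ptpn6 and Syk and in 45.8% of all promoters, while a pair of GAAA words with any 2 bases between, a repeat bound by interferon-regulated factors, stood in none of the 9 and in 2.98% of all. Sla had no entry. Starts of these genes that the table does not hold were not searched.

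Of the libraries labelled Bank1-/- 0 h, replicate 5 lay far from the rest. Over all tested genes its root mean square distance was 0.159 log2 units to the nearest Bank1-/- 24 h library and 0.978 to the nearest of its own group. For 8 of the 10 members it lay outside the range of the other 4 Bank1-/- 0 h libraries, and for 9 it was nearer to the Bank1-/- 24 h mean than to the mean of those 4. Most results that use the Bank1-/- 0 h group are therefore also given without it. Mean raw signal per array ran from 145.7 to 539.9 and was 420 ± 97.9 in Bank1-/- at 6 h against 254 ± 118 in WT at 6 h (SD, n = 5). Bank1 itself was lower in all Bank1-/- libraries than in all WT libraries at each time, by log2 differences of -1.84, -1.00, -2.42 and -2.26 at 0, 6, 24 and 48 h, with -1.39 at 0 h when the library standing apart was left out. The Bank1 probe was still detected on all 5 Bank1-/- arrays at 0, 24 and 48 h. At 6 h it was detected on 3 of 5, so the size of that difference is uncertain. Of 6 B cell markers with a probe, 5 or 6 were detected on all arrays of each group, while at most 1 of 6 T cell markers and 0 of 3 NK cell markers were detected on any array of a group. Some markers of other cells were detected on at least 1 array: 5 of 5 erythroid markers in Bank1-/- at 6 h and 1 to 3 in each other group, 2 to 6 of 9 myeloid markers, 1 to 2 of 6 dendritic cell markers and 1 to 3 of 4 platelet and megakaryocyte markers.

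Most of the 10 genes were low at 6 h and regained signal by 48 h in both genotypes. At 6 h against 0 h, 9 of 10 were lower in Bank1-/- cells and none higher, where 29.5% of all tested genes were lower and 31.1% higher. In WT cells 9 were also lower and none higher, against 33.6% of all genes lower and 32.9% higher. The median log2 difference of the members was -1.22 in Bank1-/-, -1.40 without the library standing apart, and -1.24 in WT, against 0.02 in Bank1-/- and -0.01 in WT over all tested genes. Blnk was the member that did not pass in either genotype. With arrays scaled to their 75th percentile the counts at 6 h were again 9 lower and none higher in each genotype. Of all 9483 genes, 4952 were then called in Bank1-/-, 57.3% of them higher, and 5610 in WT, 44.3% of them higher. Between 24 and 48 h, 9 members rose in Bank1-/- (28.3% of all genes rose and 25.6% fell) and 8 in WT (26.6% and 27%), and none fell. Signal of the B cell markers moved at the same times: 4 of 6 were lower at 6 h in Bank1-/- and 6 of 6 in WT, and 5 and 6 of 6 rose between 24 and 48 h. Of the erythroid markers, 3 of 4 tested were higher at 6 h against 0 h in Bank1-/- and 1 of 4 in WT. Their list mean was 7.96 to 8.53 at 6 h against 6.67 to 7.68 at 0 h in Bank1-/-, and 7.13 to 7.39 at 6 h against 6.82 to 7.20 at 0 h in WT. These marker counts and ranges include the library standing apart and were not made without it. The B cell list mean at 0 h was 9.21 to 11.31 in Bank1-/- and 11.18 to 11.38 in WT. The part of these marker changes in the members' courses was not tested. A call here is an adjusted p under 0.05 in limma's moderated test, adjusted over all 9483 genes.

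**Figure D1:**
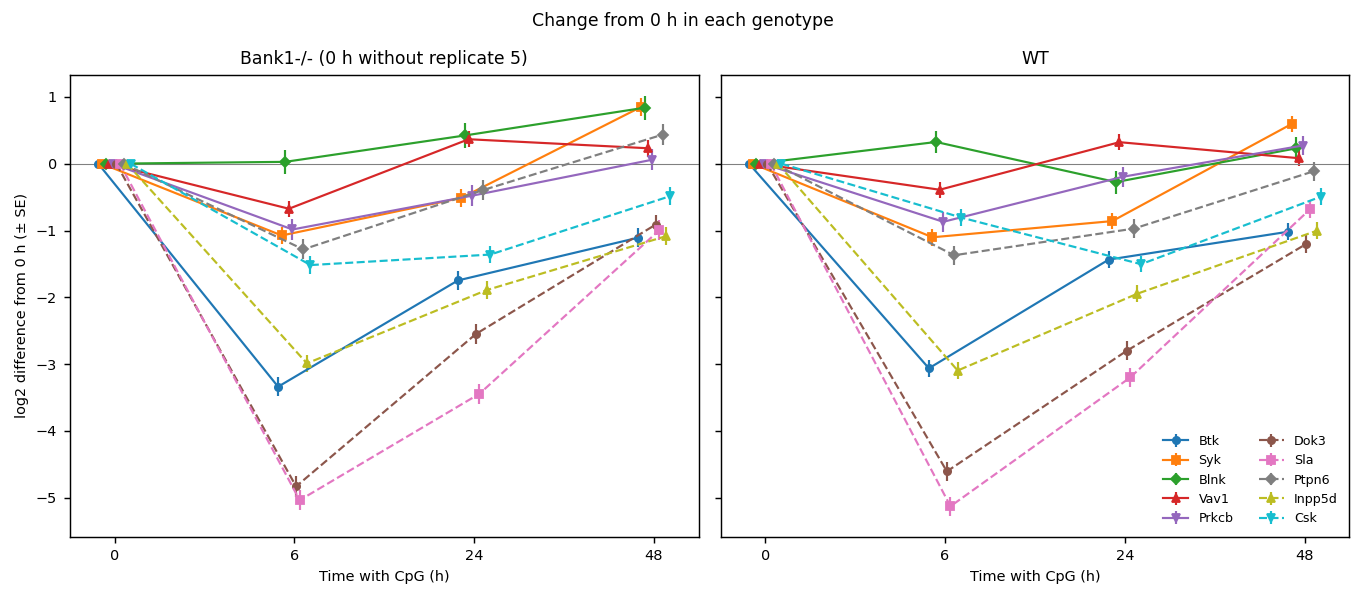
Mean log2 difference from 0 h (± SE) of each of the 10 genes at 6, 24 and 48 h, in Bank1-/- cells on the left, with 0 h replicate 5 left out, and in WT cells on the right. Solid lines are the kinases, Blnk and Vav1, dashed lines the brakes. Sla and Dok3 lie lowest at 6 h in both panels, and Blnk lies at or above 0 at 6 h.

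Btk, the Tec-family kinase that activates the phospholipase of this pathway, changed most of the 3 kinases, losing about 3 log2 units at 6 h. At 0 h Btk gave 12.14, 12.12, 12.02, 11.24 and 10.47 in Bank1-/- and 11.79, 11.94, 11.72, 11.63 and 11.88 in WT. At 6 h Btk gave 8.71, 8.47, 8.42, 8.34 and 8.78 in Bank1-/- and 8.74, 8.73, 8.75, 8.44 and 8.98 in WT. Every 6 h library of both genotypes was below every 0 h library, and the genotypes overlapped at both times. At 24 h Btk gave 10.36, 9.95, 10.25, 10.30 and 9.82 in Bank1-/- and 10.54, 10.40, 10.36, 10.30 and 10.18 in WT. At 48 h Btk gave 10.65, 10.86, 10.71, 10.67 and 10.98 in Bank1-/- and 10.47, 10.87, 10.85, 10.81 and 10.87 in WT. Bank1-/- 0 h replicate 5 aside, signal lay between the 6 h and the 0 h libraries at both later times. The change at 6 h against 0 h was -3.06 (SE 0.19, adjusted p = 1.61e-16) in Bank1-/- and -3.06 (SE 0.19, adjusted p = 9.95e-17) in WT, which is 8.31-fold lower in Bank1-/- and 8.35-fold lower in WT. Without the library that stood apart, the Bank1-/- value was -3.34. At 48 h Btk was still below 0 h, with differences of -0.83 (adjusted p = 0.000317) in Bank1-/- and -1.02 (adjusted p = 1.65e-05) in WT. Without that library the Bank1-/- value was -1.11 (adjusted p = 9.79e-09), and the groups then did not overlap. The rise between 24 and 48 h passed the test in Bank1-/- with 0.64 (adjusted p = 0.00386). In WT that step was 0.42 (adjusted p = 0.0564), and it passed, with the same size and an adjusted p of 0.00634, in the fit that left out the library standing apart.

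Syk, the kinase that docks on the phosphorylated receptor, fell less and ended higher than it began. At 0 h Syk gave 8.43, 8.60, 8.48, 8.43 and 7.56 in Bank1-/- and 9.24, 8.54, 8.67, 8.52 and 8.89 in WT. At 6 h Syk gave 7.21, 7.17, 7.77, 7.18 and 7.71 in Bank1-/- and 7.47, 7.71, 7.62, 7.81 and 7.75 in WT. In Bank1-/- the groups overlapped through the 0 h library that stood apart, and in WT they did not overlap. At 24 h Syk gave 7.90, 8.13, 7.98, 7.70 and 8.16 in Bank1-/- and 7.91, 8.02, 7.91, 7.77 and 7.96 in WT. At 48 h Syk gave 9.49, 9.11, 9.23, 9.31 and 9.54 in Bank1-/- and 9.43, 9.14, 9.47, 9.32 and 9.49 in WT. All 48 h libraries were above all 24 h libraries in both genotypes. At 6 h against 0 h Syk changed by -0.89 (SE 0.15, adjusted p = 3.57e-06) in Bank1-/-, -1.07 without that library, and -1.10 (SE 0.15, adjusted p = 5.18e-08) in WT. It rose between 24 and 48 h by 1.36 (adjusted p = 1.28e-09) in Bank1-/- and 1.46 (adjusted p = 2.36e-10) in WT. At 48 h against 0 h it was higher by 1.04 (adjusted p = 4.49e-07) in Bank1-/-, 0.85 without the library standing apart, and by 0.60 (adjusted p = 0.000948) in WT. At 24 h against 0 h it was lower in WT, at -0.86 (adjusted p = 5.7e-06). The same step in Bank1-/- was -0.33 (adjusted p = 0.0604) with all libraries and passed without that library, at -0.51 (adjusted p = 0.000811).

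Prkcb, protein kinase C beta, lost less than 1 log2 unit at 6 h on its main probe under quantile normalization. At 0 h Prkcb gave 12.35, 12.45, 12.41, 12.35 and 12.13 in Bank1-/- and 12.25, 12.24, 12.21, 12.11 and 12.42 in WT. At 6 h Prkcb gave 11.98, 11.17, 11.26, 10.99 and 11.62 in Bank1-/- and 11.09, 11.18, 11.13, 11.41 and 12.07 in WT. The 6 h libraries spread over about 1 log2 unit in each genotype, and all lay below the 0 h libraries of the same genotype. Prkcb changed by -0.93 (SE 0.15, adjusted p = 1.96e-06) in Bank1-/-, -0.98 without the library standing apart, and -0.87 (SE 0.15, adjusted p = 4.96e-06) in WT. With arrays scaled to their 75th percentile this was -0.69 in Bank1-/- and -1.34 in WT. Probe 3 of the gene gave -0.19 (adjusted p = 0.535) in Bank1-/- and -1.10 (adjusted p = 0.000266) in WT at the same step. Signal was 11.84 to 12.07 in Bank1-/- and 11.94 to 12.14 in WT at 24 h. By 48 h it was 12.31 to 12.79 in Bank1-/- and 12.05 to 12.77 in WT, overlapping the 0 h range. The 48 h difference from 0 h did not pass in either genotype, at 0.11 (adjusted p = 0.565) in Bank1-/- and 0.27 (adjusted p = 0.128) in WT.

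Blnk, the adaptor that links Syk to Btk, kept its signal at 6 h. At 0 h Blnk gave 9.69, 9.60, 9.60, 8.62 and 9.50 in Bank1-/- and 10.16, 9.67, 9.71, 9.67 and 9.73 in WT. At 6 h Blnk gave 9.62, 9.71, 9.30, 9.69 and 8.71 in Bank1-/- and 10.36, 10.23, 10.29, 10.16 and 9.55 in WT. In WT 4 of 5 libraries at 6 h were above 10, in Bank1-/- none were, and the genotypes overlapped through WT replicate 5. At 24 h Blnk gave 9.40, 9.99, 9.69, 9.85 and 10.08 in Bank1-/- and 9.49, 9.52, 9.58, 9.49 and 9.49 in WT. At 48 h Blnk gave 10.21, 10.19, 10.13, 10.34 and 10.23 in Bank1-/- and 9.81, 10.10, 10.05, 9.85 and 10.28 in WT. The 48 h libraries of each genotype were above all 24 h libraries of that genotype. The 6 h difference from 0 h was 0.00 (adjusted p = 0.983) in Bank1-/- with a 95% interval of -0.35 to 0.36, and 0.33 (adjusted p = 0.0957) in WT with an interval of -0.03 to 0.68. In Bank1-/- Blnk was higher than at 0 h by 0.82 (SE 0.17, adjusted p = 0.000156) at 48 h, 0.84 without the library standing apart. At 24 h its Bank1-/- value was 0.40 (adjusted p = 0.045) under quantile normalization, 0.42 without that library, and 0.12 (adjusted p = 0.609) with arrays scaled to their 75th percentile. In WT the drop between 6 and 24 h, -0.60 (adjusted p = 0.00339), turned to 0.29 (adjusted p = 0.173) under that scaling. The rise between 24 and 48 h was 0.42 (adjusted p = 0.0412) in Bank1-/- and 0.50 (adjusted p = 0.0136) in WT, and the Bank1-/- call was lost in 10 of 22 alternative settings.

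Vav1, an exchange factor that activates Rac GTPases, dipped at 6 h and was back by 24 h. At 0 h Vav1 gave 10.02, 10.11, 10.26, 10.41 and 10.60 in Bank1-/- and 10.22, 10.05, 9.97, 9.90 and 10.37 in WT. At 6 h Vav1 gave 9.24, 9.71, 9.45, 9.80 and 9.43 in Bank1-/- and 9.70, 9.97, 9.51, 9.65 and 9.74 in WT. The 2 times did not overlap in Bank1-/- and overlapped in WT. At that step Vav1 changed by -0.75 (SE 0.12, adjusted p = 1.78e-06) in Bank1-/-, -0.67 without the library standing apart, and -0.39 (SE 0.12, adjusted p = 0.00547) in WT. At 24 h it was 10.23 to 10.97 in Bank1-/- and 10.32 to 10.52 in WT, above every 6 h library of the same genotype. The step between 6 and 24 h was 1.04 (adjusted p = 4.72e-09) in Bank1-/- and 0.71 (adjusted p = 5.9e-06) in WT. At 48 h Vav1 was 10.28 to 10.64 in Bank1-/- and 10.06 to 10.34 in WT, and it was the 1 member with no positive difference between 24 and 48 h in either genotype, at -0.14 (adjusted p = 0.366) in Bank1-/- and -0.24 (adjusted p = 0.0973) in WT. The 24 h value against 0 h was 0.29 (adjusted p = 0.0424) in Bank1-/-, 0.37 without that library, and 0.32 (adjusted p = 0.0206) in WT under quantile normalization. Scaled to the 75th percentile these became 0.02 (adjusted p = 0.937) in Bank1-/- and 0.67 (adjusted p = 0.00547) in WT.

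**Figure D2:**
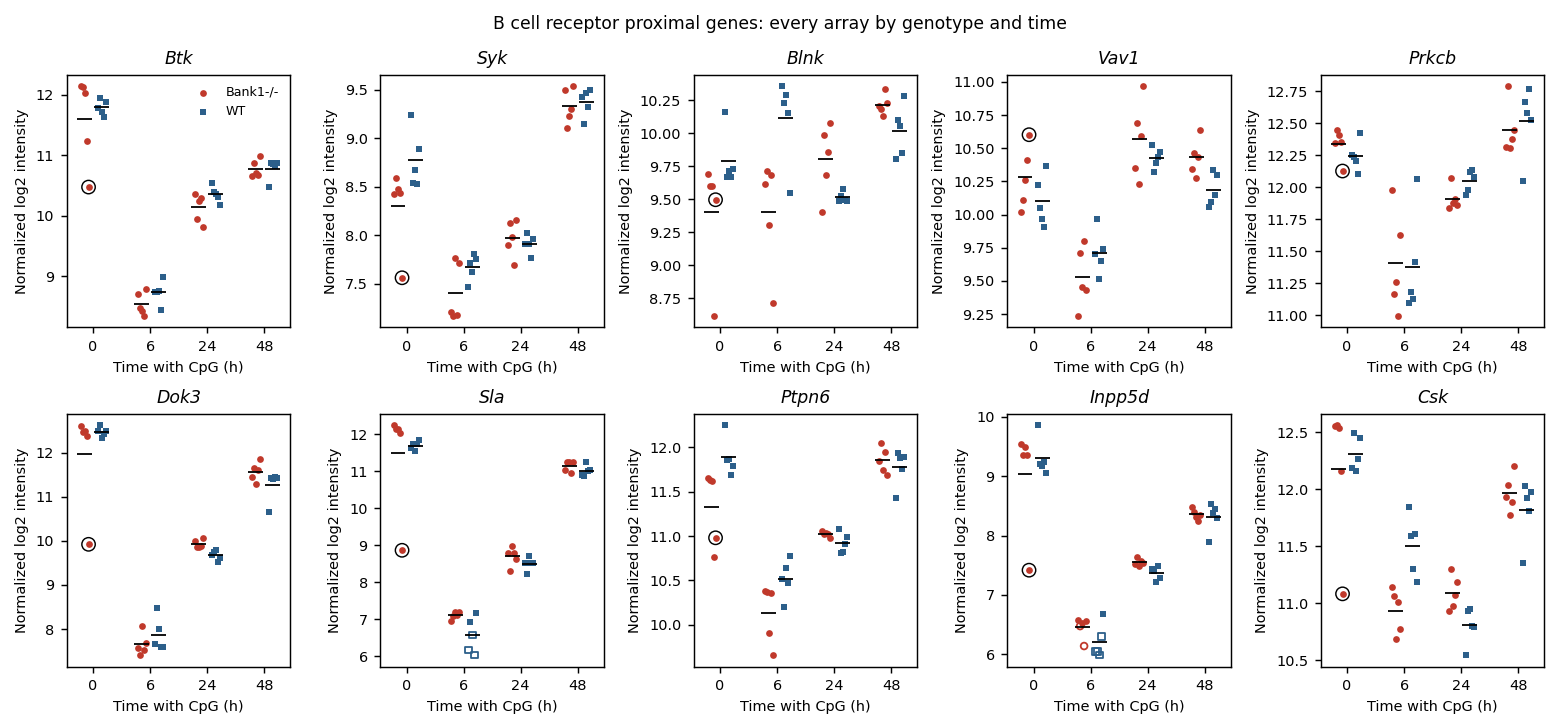
Normalized log2 intensity of the 10 genes in each of the 40 arrays, by time with CpG, with Bank1-/- as red circles left of WT as blue squares. Bars are group means, open symbols are arrays where the probe was not above the detection threshold, and a ring marks Bank1-/- 0 h replicate 5. The ringed library lies within the Bank1-/- 24 h range for 6 genes: Blnk, Vav1, Dok3, Sla, Ptpn6 and Csk.

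Dok3, the adaptor that recruits SHIP1, fell by over 4 log2 units in both genotypes. At 0 h Dok3 gave 12.60, 12.47, 12.49, 12.37 and 9.92 in Bank1-/- and 12.49, 12.62, 12.32, 12.41 and 12.50 in WT. At 6 h Dok3 gave 7.57, 7.41, 8.07, 7.52 and 7.69 in Bank1-/- and 7.65, 8.49, 7.99, 7.60 and 7.59 in WT. Every 6 h library was far below every 0 h library, and only Bank1-/- 0 h replicate 5 fell between these levels. At 24 h Dok3 gave 10.00, 9.85, 9.86, 9.88 and 10.07 in Bank1-/- and 9.67, 9.75, 9.80, 9.51 and 9.61 in WT. At 48 h Dok3 gave 11.45, 11.64, 11.30, 11.61 and 11.86 in Bank1-/- and 10.65, 11.42, 11.41, 11.44 and 11.43 in WT. The 4 times of WT cells did not overlap, and at 24 h all Bank1-/- libraries were above all WT libraries. The 6 h change was -4.32 (SE 0.28, adjusted p = 7e-16) in Bank1-/- and -4.60 (SE 0.28, adjusted p = 7.76e-17) in WT, 19.9-fold lower in Bank1-/- and 24.3-fold lower in WT. Without the library standing apart the Bank1-/- value was -4.83. Dok3 then rose by 2.28 (adjusted p = 9.39e-09) in Bank1-/- and 1.80 (adjusted p = 8.53e-07) in WT between 6 and 24 h. Between 24 and 48 h it rose by 1.64 (adjusted p = 5.02e-06) in Bank1-/- and 1.60 (adjusted p = 6.8e-06) in WT. At 48 h against 0 h the Bank1-/- value was -0.40 (adjusted p = 0.237), and -0.91 (adjusted p = 2.21e-06) without that library, while WT was lower, at -1.20 (adjusted p = 0.000381).

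Sla, the adaptor SLAP, was the member with the widest span of group means, 5.13 log2 units, down to a 6 h WT mean that lies near background. At 0 h Sla gave 12.24, 12.14, 12.14, 12.05 and 8.86 in Bank1-/- and 11.64, 11.73, 11.54, 11.73 and 11.84 in WT. At 6 h Sla gave 6.94, 7.09, 7.19, 7.10 and 7.20 in Bank1-/- and 6.16, 6.91, 6.57, 6.03 and 7.18 in WT. Sla was above the detection threshold on all 5 Bank1-/- arrays at 6 h and on 2 of 5 WT arrays. At 24 h Sla gave 8.79, 8.31, 8.97, 8.79 and 8.63 in Bank1-/- and 8.53, 8.23, 8.70, 8.52 and 8.52 in WT. At 48 h Sla gave 11.04, 11.25, 11.24, 10.95 and 11.26 in Bank1-/- and 10.91, 10.88, 11.24, 11.01 and 11.04 in WT. In both genotypes the 48 h libraries were above all 24 h libraries. At 6 h against 0 h Sla changed by -4.38 (SE 0.33, adjusted p = 7.77e-14) in Bank1-/-, -5.04 without the library standing apart, and -5.13 (SE 0.33, adjusted p = 7.11e-16) in WT, where 3 of the 5 WT arrays at 6 h were not above background. The rise between 24 and 48 h was 2.45 (adjusted p = 1.06e-07) in Bank1-/- and 2.52 (adjusted p = 5.45e-08) in WT. At 48 h against 0 h, Sla differed by -0.34 (adjusted p = 0.416) in Bank1-/- and -0.68 (adjusted p = 0.0829) in WT. Without that library both passed, at -1.00 (adjusted p = 2.63e-07) in Bank1-/- and -0.68 (adjusted p = 5.56e-05) in WT.

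Inpp5d, which encodes the lipid phosphatase SHIP1, was near the detection limit at 6 h. At 0 h Inpp5d gave 9.55, 9.36, 9.50, 9.36 and 7.42 in Bank1-/- and 9.86, 9.21, 9.17, 9.24 and 9.06 in WT. At 6 h Inpp5d gave 6.58, 6.48, 6.52, 6.14 and 6.56 in Bank1-/- and 6.04, 6.04, 5.99, 6.30 and 6.68 in WT. It was detected on 3 of 5 Bank1-/- arrays and on 1 of 5 WT arrays at 6 h. At 24 h Inpp5d gave 7.52, 7.63, 7.49, 7.58 and 7.53 in Bank1-/- and 7.43, 7.40, 7.21, 7.49 and 7.28 in WT. At 48 h Inpp5d gave 8.49, 8.40, 8.31, 8.25 and 8.35 in Bank1-/- and 7.88, 8.53, 8.39, 8.45 and 8.29 in WT. All WT libraries at each later time lay apart from those at the time before, and at 24 h all Bank1-/- libraries were above all WT libraries. The 6 h change was -2.58 (SE 0.23, adjusted p = 2.71e-12) in Bank1-/-, -2.99 without the library standing apart, and -3.10 (SE 0.23, adjusted p = 1.37e-14) in WT. As 2 of 5 Bank1-/- arrays and 4 of 5 WT arrays at 6 h were not above background, the size of these changes is uncertain. At 48 h Inpp5d was still lower than at 0 h, at -0.68 (adjusted p = 0.0117) in Bank1-/-, -1.08 without that library, and at -1.00 (adjusted p = 0.000283) in WT. The Bank1-/- call at 48 h was not kept without Bank1-/- 0 h replicate 1 (-0.55, adjusted p = 0.052) or in a fit of the 2 groups alone (adjusted p = 0.16).

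Ptpn6, which encodes the phosphatase SHP-1, lost over 1 log2 unit at 6 h and regained it by 48 h on its brighter probe. At 0 h Ptpn6 gave 11.66, 11.63, 11.62, 10.76 and 10.98 in Bank1-/- and 12.25, 11.86, 11.87, 11.68 and 11.79 in WT. At 6 h Ptpn6 gave 10.39, 10.37, 9.91, 10.36 and 9.66 in Bank1-/- and 10.52, 10.20, 10.64, 10.47 and 10.77 in WT. The 0 h libraries of Bank1-/- were all below those of WT, and at 6 h both genotypes had dropped below all their 0 h values. At 24 h Ptpn6 gave 11.06, 11.02, 11.04, 11.03 and 10.98 in Bank1-/- and 11.07, 10.81, 10.82, 10.91 and 10.99 in WT. At 48 h Ptpn6 gave 11.84, 12.05, 11.74, 11.94 and 11.69 in Bank1-/- and 11.43, 11.93, 11.88, 11.76 and 11.90 in WT. Bank1-/- at 48 h was above all its 0 h values, and WT at 48 h overlapped its own. The 6 h change was -1.19 (SE 0.15, adjusted p = 1.07e-08) in Bank1-/-, -1.28 without the library standing apart, and -1.37 (SE 0.15, adjusted p = 3.39e-10) in WT. Between 24 and 48 h it rose by 0.83 (adjusted p = 1.25e-05) in Bank1-/- and 0.86 (adjusted p = 7.14e-06) in WT. At 48 h against 0 h it was 0.52 (adjusted p = 0.00339) in Bank1-/-, 0.44 without the library standing apart, and -0.11 (adjusted p = 0.548) in WT. On the dimmer probe the same Bank1-/- value was -0.36 (adjusted p = 0.0113), so its direction depends on the probe.

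Csk, the kinase that holds Src-family kinases inactive, was low at both 6 and 24 h and partly regained its signal by 48 h. At 0 h Csk gave 12.55, 12.56, 12.54, 12.16 and 11.08 in Bank1-/- and 12.19, 12.49, 12.16, 12.26 and 12.45 in WT. At 6 h Csk gave 11.14, 11.06, 10.69, 11.01 and 10.78 in Bank1-/- and 11.85, 11.59, 11.30, 11.60 and 11.19 in WT. All 5 Bank1-/- libraries at 6 h were below all 5 WT libraries. At 24 h Csk gave 10.93, 11.30, 10.98, 11.08 and 11.18 in Bank1-/- and 10.55, 10.94, 10.95, 10.80 and 10.80 in WT. At 48 h Csk gave 11.93, 12.04, 11.77, 11.89 and 12.20 in Bank1-/- and 11.35, 12.02, 11.93, 11.81 and 11.97 in WT. In WT all 24 h libraries were below all 6 h libraries, and in Bank1-/- these times overlapped. The 6 h change was -1.24 (SE 0.18, adjusted p = 1.74e-07) in Bank1-/-, -1.52 without the library standing apart, and -0.81 (SE 0.18, adjusted p = 0.000147) in WT. The step between 6 and 24 h was 0.16 (adjusted p = 0.487) in Bank1-/- and -0.70 (adjusted p = 0.00106) in WT, and the WT value turned to 0.17 (adjusted p = 0.419) with arrays scaled to their 75th percentile. Csk rose between 24 and 48 h by 0.87 (adjusted p = 7.66e-05) in Bank1-/- and 1.01 (adjusted p = 8.81e-06) in WT. At 48 h against 0 h it was -0.21 (adjusted p = 0.337) in Bank1-/-, -0.49 (adjusted p = 0.00166) without that library, and -0.49 (adjusted p = 0.0182) in WT. The WT call was lost without WT 48 h replicate 1 (-0.38, adjusted p = 0.0822), with array brightness as a covariate (-0.34, adjusted p = 0.104) and with 75th-percentile scaling (-0.14, adjusted p = 0.538).

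At the intermediate steps the members' counts were as follows. At 24 h against 0 h, 2 members were higher and 6 lower in Bank1-/- (29.2% and 30.5% of all genes). Without the library standing apart 2 were higher and 8 lower (32.2% and 33%); the higher calls of Blnk and Vav1 were lost with arrays scaled to their 75th percentile. In WT 1 was higher and 7 lower at that step (34.5% and 30% of all genes). Btk, Dok3, Sla, Inpp5d and Csk were lower in both genotypes. At 48 h against 0 h, Syk, Blnk and Ptpn6 were higher and Btk and Inpp5d lower in Bank1-/- (25.3% and 25.6% of all genes). With that library left out 3 were higher and 5 lower (29.8% and 29.4%). In WT Syk was higher and Btk, Dok3, Inpp5d and Csk lower (29% and 26%). With 75th-percentile scaling 2 were higher and 2 lower in Bank1-/-, where Ptpn6 no longer passed, and 3 were higher and 3 lower in WT, where Blnk and Prkcb joined and Csk dropped out. Between 6 and 24 h, 8 members were higher and none lower in Bank1-/- (23.8% of all genes were higher and 27.8% lower), and scaling to the 75th percentile left 5. In WT 7 were higher and 2 lower (31.3% and 25.9%), and that scaling gave 8 and 0. Of all tested genes, 4245 were called under that scaling in Bank1-/-, 33.6% of them higher, and 5647 in WT, 69.0% of them higher. The 5 and the 8 are therefore not read as a difference between the genotypes. For Btk, Dok3, Sla and Inpp5d the order of the 8 group means was by time, 0 h highest, then 48 h, 24 h and 6 h, with the 2 genotypes of each time as neighbours. For Btk and Sla, 5 of the 7 pairs of neighbours in that order had overlapping ranges, for Dok3 and Inpp5d 4 of 7.

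The comparison of genotypes asked whether cells without Bank1 held different amounts of these transcripts. Of 40 differences, 10 genes at 4 times, 3 passed the test, all with lower signal in Bank1-/-. At 0 h 1 of 10 members was lower and none higher, against 0.812% of all genes lower and 0.717% higher. That was Ptpn6, which averaged 11.33 ± 0.43 in Bank1-/- and 11.89 ± 0.21 in WT (SD, n = 5 each). The difference was -0.56 (SE 0.15, adjusted p = 0.0442). Without the library standing apart it was -0.47 (adjusted p = 0.118), with all 4 remaining libraries still below WT (1.38% of all genes were lower without overlap in all libraries), and without Bank1-/- 0 h replicate 4 it was -0.42 (adjusted p = 0.118). The call was also lost without any 1 of the 5 WT 0 h libraries (adjusted p = 0.0531 to 0.179), and the second probe gave -0.26 (adjusted p = 0.266). Myeloid markers moved with it: 2 of 5 tested were lower at 0 h, and the mean of the 9 with a probe was 6.15 to 6.59 in Bank1-/- against 6.43 to 6.74 in WT. These marker values include the library standing apart and were not made without it. The part of these markers in the Ptpn6 difference was not tested. At 6 h 2 members, Blnk and Csk, were lower and none higher, against 7.53% of all genes lower and 14.5% higher. Leaving out the library standing apart gave 3 lower and 1 higher (10.9% and 19.7% of all genes), with Ptpn6 joining at -0.38 (adjusted p = 0.0376) and Sla at 0.53 (adjusted p = 0.00378), with 3 of the 5 WT arrays not above background for Sla. That library is in neither 6 h group, so the 6 h differences kept their size. The calls changed through the estimate of spread that all groups share. Blnk averaged 9.41 ± 0.42 in Bank1-/- and 10.12 ± 0.33 in WT (SD, n = 5 each). The Blnk difference was -0.71 (SE 0.17, adjusted p = 0.00388). Csk averaged 10.94 ± 0.19 in Bank1-/- and 11.51 ± 0.26 in WT (SD, n = 5 each). The Csk difference was -0.57 (SE 0.18, adjusted p = 0.0199) with no overlap, where 2.55% of all genes were lower without overlap.

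Both 6 h calls depended on how the arrays were scaled. With arrays scaled to their 75th percentile, the median of all genes between genotypes at 6 h moved to 0.35, against 0.05 under quantile normalization, and 92.4% of all calls were higher in Bank1-/-, against 65.9%. Blnk then differed by 0.16 (adjusted p = 0.467) and Csk by 0.32 (adjusted p = 0.146), which relative to the median of all genes is -0.18 for Blnk and -0.03 for Csk. The calls under that scaling were instead 3 higher members. They were Vav1 at 0.68 (adjusted p = 0.00737), Prkcb at 0.95 (adjusted p = 0.00603) and Ptpn6 at 0.54 (adjusted p = 0.0487). Of all 9483 genes, 4425 were called under that scaling, 92.4% of them higher. Relative to the median of all genes, the 3 differences were 0.33 for Vav1, 0.60 for Prkcb and 0.20 for Ptpn6. These 3 calls are therefore not read as results about the members. With the brightness of the array as a covariate, Blnk differed by -0.36 (adjusted p = 0.379) and Csk by -0.32 (adjusted p = 0.512). Blnk was also lost in a fit of the 6 h groups alone (adjusted p = 0.0511), and Csk without Bank1-/- 6 h replicate 3 (-0.51, adjusted p = 0.0616), Bank1-/- 6 h replicate 5 (-0.53, adjusted p = 0.0541) or WT 6 h replicate 1 (-0.48, adjusted p = 0.0781). Erythroid markers moved with the genotypes at this time: the mean of the 5 with a probe was 7.96 to 8.53 in Bank1-/- and 7.13 to 7.39 in WT, with 3 of 4 tested higher. For 9 myeloid markers it was 6.41 to 6.64 in Bank1-/- and 6.23 to 6.46 in WT, with 3 of 5 tested higher. The part of brightness and of these markers in the 6 h differences was not tested beyond the covariate fit.

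**Figure D3:**
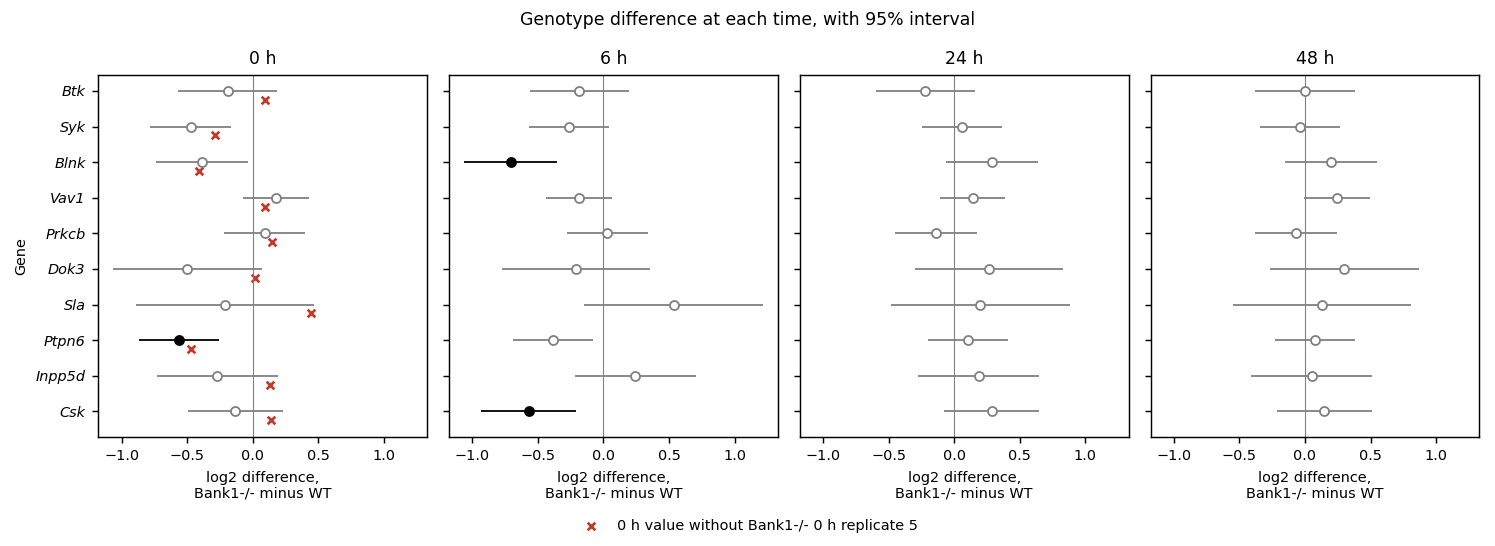
Log2 difference, Bank1-/- minus WT, of each gene at each time with its 95% interval. Filled black points passed the test after adjustment over all genes, open points did not, and red crosses give the 0 h difference without Bank1-/- 0 h replicate 5. The filled points are Ptpn6 at 0 h and Blnk and Csk at 6 h, all left of 0.

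At 24 and 48 h none of the 10 genes passed between genotypes in limma's test after adjustment, and the count at an unadjusted p under 0.05 was also 0 at both times. At 24 h 0.105% of all genes passed, the members' differences ran from -0.22 for Btk to 0.29 for Blnk, and their 95% intervals together spanned -0.60 to 0.88. At 48 h 0.169% of all genes passed, the differences ran from -0.07 for Prkcb to 0.30 for Dok3, and the intervals spanned -0.55 to 0.87. At 24 h 2 members did not overlap between genotypes, Dok3 and Inpp5d, both higher in Bank1-/-, where 2.14% of all genes were higher without overlap. Their differences were 0.27 (adjusted p = 0.716) for Dok3 and 0.19 (adjusted p = 0.762) for Inpp5d. Scaled to the 75th percentile these were -0.12 for Dok3 and 0.03 for Inpp5d. For Sla at 0 h the difference was -0.21 (adjusted p = 0.818) with all libraries. Without the one standing apart it was 0.44 (adjusted p = 0.136), which did not pass. The 4 remaining Bank1-/- libraries were then higher for Sla with no overlap. How many genes separated like this in the smaller set is not given here, so the separation is not read as a result about Sla. For Dok3 at 0 h the difference was -0.50 with the library standing apart and 0.01 without it.

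The response to CpG was also compared between genotypes, as the change from 0 h in Bank1-/- minus that in WT. None of the 10 genes passed at 6, 24 or 48 h, where 9.34%, 0.464% and 0.0949% of all genes did. In these 3 comparisons 1, 3 and 4 members had an unadjusted p under 0.05. The differences ran from -0.44 for Csk to 0.75 for Sla at 6 h. At 24 h they ran from -0.23 for Prkcb to 0.76 for Dok3, and at 48 h from -0.16 for Prkcb to 0.80 for Dok3. Without the library standing apart, Csk passed at 6 h with -0.71 (adjusted p = 0.0114) (5% of all genes were called lower), Sla gave 0.09 (adjusted p = 0.793) at 6 h, and Dok3 gave 0.25 (adjusted p = 0.612) at 24 h and 0.29 (adjusted p = 0.981) at 48 h. For Csk at 6 h, 75th-percentile scaling with all libraries turned the value to 0.25 (adjusted p = 0.53). With all libraries the lowest adjusted p was 0.137, for Ptpn6 at 24 h (0.66, 95% interval 0.23 to 1.09).

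Of the 10 genes, 4 had further probes: Blnk 1, Ptpn6 1, Prkcb 2 and Sla 2, all past the detection filter. Over the 40 arrays they correlated with the main probe at 0.91 for Blnk, 0.82 for Ptpn6, 0.86 and 0.78 for Prkcb, and 0.90 and 0.84 for Sla, where all probes share the time course. For Blnk the second probe gave a 6 h genotype difference of -0.63 (adjusted p = 0.0135) under quantile normalization. It was read on the same arrays and shares their scaling and brightness, so it is not a separate check of that difference. For Sla the other probes were lower at 6 h in both genotypes but not above background on any 6 h array, so they give no size of the change and no genotype difference at 6 h. For Ptpn6 the second probe changed at 6 h by -1.40 in Bank1-/- and -1.53 in WT, but between 24 and 48 h it changed by 0.03 in Bank1-/- and 0.08 in WT, while the main probe rose by 0.83 and 0.86. The platform annotation assigns the 2 Ptpn6 probes to different RefSeq transcripts of the gene. For Prkcb probe 3 stood above 0 h at 48 h, by 0.94 (adjusted p = 0.00226) in Bank1-/- and 0.89 (adjusted p = 0.00313) in WT. The main Prkcb probe at that step gave 0.11 in Bank1-/- and 0.27 in WT. Probe 3 was also higher in Bank1-/- than in WT at 6 h, by 0.68 (adjusted p = 0.0495), where the main probe gave 0.03.

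**Figure D4:**
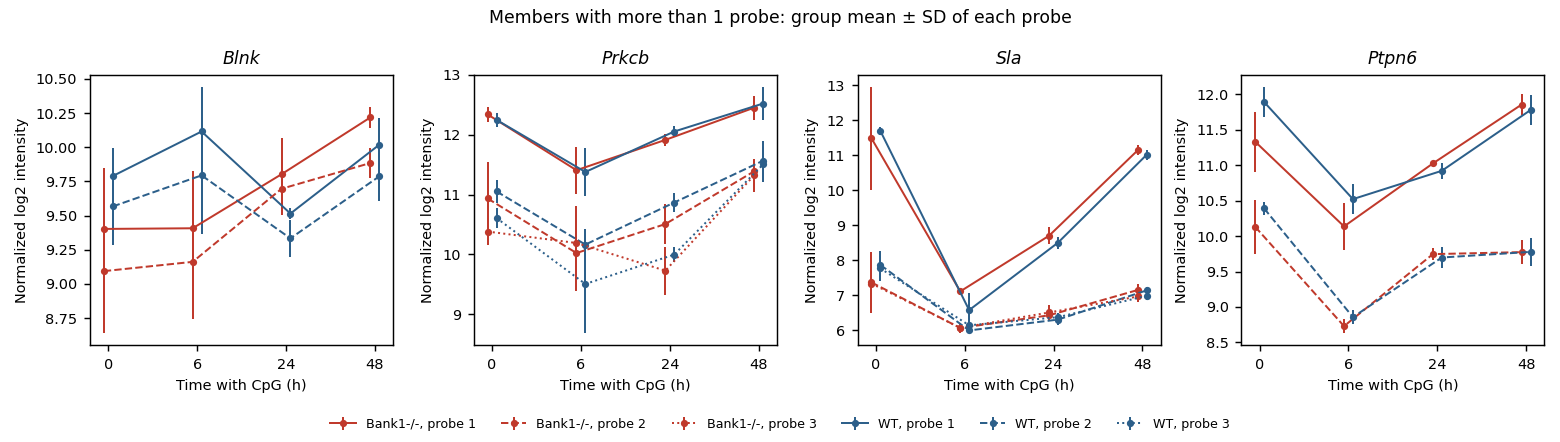
Group mean ± SD (n = 5) of each probe of the 4 genes with more than 1 probe, in normalized log2 intensity against time with CpG, Bank1-/- in red and WT in blue. Solid, dashed and dotted lines are probes 1, 2 and 3 in order of mean level. The Ptpn6 probes part after 24 h, and Prkcb probe 3 ends above its 0 h level.

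Other genes of the receptor pathway were counted from 2 lists of named genes, chosen with earlier results of these data known. Of 35 further kinases and relays, 28 were tested, and at 6 h 20 were lower and 2 higher in Bank1-/- and 22 lower and 4 higher in WT, against 29.5% of all genes lower and 31.1% higher in Bank1-/- and 33.6% and 32.9% in WT. Of 26 further brakes, 18 were tested, with 11 lower and 1 higher in Bank1-/- and 11 lower and none higher in WT. Without the library standing apart the Bank1-/- counts were 19 lower and 2 higher relays and 11 lower and 0 higher brakes. The share of all genes called at this step without that library is not given here. The Tec kinase gene changed by -2.65 (adjusted p = 1.11e-15) in Bank1-/- and -2.64 (adjusted p = 7.35e-16) in WT at 6 h. Cd22, an inhibitory co-receptor that is also on the B cell marker list, changed by -2.54 (adjusted p = 2.64e-14) in Bank1-/- at 6 h. Without that library the Bank1-/- values were -2.91 for Tec and -2.78 for Cd22. Between 24 and 48 h 19 relays rose in Bank1-/- and 18 in WT, and 11 brakes rose in each, while 2 relays and 1 brake fell in each genotype (28.3% of all genes rose in Bank1-/- and 26.6% in WT). Among them the phosphatase gene Ptpn22 rose by 3.01 (adjusted p = 4.7e-15) in Bank1-/- and 2.98 (adjusted p = 4.94e-15) in WT. Fcgr2b, the inhibitory Fc receptor that engages SHIP1, was above 0 h at 48 h by 1.41 (adjusted p = 1.78e-11) in Bank1-/- and 1.53 (adjusted p = 1.89e-12) in WT. Rac2, a GTPase activated by VAV1, was the 1 further gene called between genotypes at 0 h with all libraries, at -0.71 (adjusted p = 0.0117), and was -0.70 (adjusted p = 0.0162) without the one standing apart. Without it Itpr2, a calcium release channel of the endoplasmic reticulum named after its values were seen, was also called, at 0.45 (adjusted p = 0.0425), against 0.17 (adjusted p = 0.678) with all libraries. At 6 h 4 relays and 4 brakes were higher and 4 relays and 2 brakes lower in Bank1-/- than in WT with all libraries, against 14.5% of all genes higher and 7.53% lower. Among them were Malt1 at 0.86 (adjusted p = 0.00701), Cblb at 0.80 (adjusted p = 0.00815), Dok1 at -0.69 (adjusted p = 0.00243) and Hcls1 at -0.66 (adjusted p = 0.00426), which turned to 0.05 with arrays scaled to their 75th percentile. At 24 and 48 h none of these 28 relays and 18 brakes was called between genotypes in limma's test.

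Over the 8 group means, correlations between the 10 genes differed by member. Dok3, Inpp5d, Sla and Btk were close to each other, with Dok3 and Inpp5d at 0.99, Dok3 and Sla at 0.985 and Sla and Inpp5d at 0.98. Blnk gave -0.02 to 0.56 with the other 9, and Vav1 with Csk gave 0.12. Among all other tested genes, those with the course most like Sla were Samhd1 (r = 0.998), Acss1 (0.997) and Slain1 (0.996). Those most like Dok3 were Chst3, Gstm1 and Rasgrp1, each at 0.995, and those most like Btk were Galnt12 (0.995), Mef2c (0.995) and Fbxo6 (0.994). Those most like Inpp5d were Spns3 (0.997), Sbk1 (0.996) and Smim14 (0.995). For Blnk the closest were Txndc5 at 0.94, Shkbp1 at 0.90 and Dclk1 at 0.89. Those most like the other members were Clec2m, Chst12 and Stard10 for Syk (0.991 to 0.994), Cd99l2, Dab2ip and Lrrk1 for Vav1 (0.975 to 0.986), and Lrrc8c, Serinc3 and Elovl5 for Prkcb (0.991 to 0.994). They were Gm2a, Baz2b and Sdc4 for Ptpn6 (0.984 to 0.987), and Map3k3, Rhof and Midn for Csk (0.982 to 0.988).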

How the data were processed

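RNA of 40 B cell samples, 8 groups of 5, was hybridised to Illumina mouse bead arrays, 150 ng total RNA per sample per the labels. The authors deposited non-normalized probe intensity, per the file header, for 45281 probes. Its header announces detection p-values that were not used here, and 8 further columns matched no sample and were not used. The authors also deposited log2 values whose making is not given in the sources used here. Quantile-normalizing the log2 raw signal came within 0.128 of each of them.

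Intensities were background-corrected with normexp (offset 50), quantile-normalized and taken to log2 with limma 3.58.1 in R 4.3.3. Detection was set per array at the 99th percentile of 1287 olfactory receptor probes, 6.26 to 6.98 log2 units. Probes detected on at least 5 arrays and with 1 gene symbol in the platform annotation were kept, and per gene the probe with the highest mean of the authors' values was used. Of all probes, 34885 had 1 symbol, 18 several and 10378 none. One limma model over all 8 groups (32 residual degrees of freedom) gave 17 comparisons, with Benjamini-Hochberg adjustment over 9483 genes in each, and was tested on simulated data. The number of arrays limits precision. The labels call the replicates biological.

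The members, marker lists and pathway lists were chosen with earlier results of these data known. Named were all members, Bank1, up to 4 called pathway genes with the smallest p per comparison, and the 3 genes most correlated with each member. Replicate numbers did not pair samples (43 of 140 pairs of same-numbered libraries correlated above 0.1). Alternatives were the authors' values, no background correction, 75th-percentile scaling, no filter, other probes, the compared groups alone, array weights, array brightness, the replicate block, a 1.5-fold rule and leaving out libraries. Promoters were read from the RefSeq table with Python 3.11.15, pandas 2.3.3 and numpy 2.4.6. Figures used matplotlib 3.10.9.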

Additional observations from a re-analysis of the deposited data

Results flagged for a closer look

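In 12 of 80 groups of 5 libraries, 1 library lay apart from the other 4 by Dixon's test at the 95% level, which chance alone does in about 1 in 20 groups. Of the 12, 6 were in Bank1-/- 0 h, 5 of them its replicate 5. That library gave 7.56 for Syk against 8.43 to 8.60 in the other 4, 9.92 for Dok3 against 12.37 to 12.60, and 8.86 for Sla against 12.05 to 12.24. It gave 7.42 for Inpp5d against 9.36 to 9.55 and 11.08 for Csk against 12.16 to 12.56. The sixth was Blnk in Bank1-/- 0 h replicate 4, at 8.62 against 9.50 to 9.69.

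In Bank1-/- 6 h, replicate 4 gave 6.14 for Inpp5d against 6.48 to 6.58. In WT 0 h, replicate 1 gave 10.16 for Blnk against 9.67 to 9.73, and 9.86 for Inpp5d against 9.06 to 9.24. In WT 6 h, replicate 5 gave 9.55 for Blnk against 10.16 to 10.36. In WT 48 h, replicate 1 gave 10.47 for Btk against 10.81 to 10.87, and 10.65 for Dok3 against 11.41 to 11.44.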

How the results depend on the processing

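Leaving out 1 library of a comparison at a time gave 2000 values for single members, of which 1946 kept their side of the threshold, 33 lost and 21 gained a call. No called value changed sign, but 49 values that were not called did, among them at 0 h, without Bank1-/- 0 h replicate 5, the genotype differences of Sla (-0.21 with all libraries, 0.44 without it), Btk (-0.19, 0.09), Inpp5d (-0.27, 0.13) and Dok3 (-0.50, 0.01). Members called between genotypes ran over 0 to 2 at 0 h, 1 to 3 at 6 h, and stayed at 0 at 24 and 48 h in those fits. Counts of members called ran over 9 to 9, 6 to 10 and 4 to 8 at 6, 24 and 48 h against 0 h in Bank1-/-, and over 9 to 10, 7 to 8 and 5 to 5 in WT. They ran over 8 to 9 between 6 and 24 h and between 24 and 48 h in each genotype, and over 0 to 1, 0 to 0 and 0 to 0 for the differences of responses at 6, 24 and 48 h.

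With arrays scaled to their 75th percentile, the 6 h genotype values turned to 0.16 for Blnk, 0.68 for Vav1, 0.54 for Ptpn6, 0.32 for Csk and 0.051 for Hcls1. The WT values at 24 h against 6 h turned to 0.29 for Blnk and 0.17 for Csk. On other probes Ptpn6 turned to -0.36 at 48 h against 0 h in Bank1-/- and Prkcb to -0.46 at 24 h against 6 h in Bank1-/-. With array weights, Sla between genotypes at 0 h turned to 0.42 and was called (adjusted p = 0.00917 in limma's test). Blnk at 6 h against 0 h in Bank1-/- turned to -0.26, and the Btk difference of responses at 6 h to -0.43. The cause was not tested.

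The single member called between genotypes at 0 h became 0 under 75th-percentile scaling, no filter, the second probe, the groups alone, the 1.5-fold rule and without Bank1-/- 0 h replicate 5. With array weights Ptpn6 also lost its call, at -0.24 (adjusted p = 0.0909), and Sla was called higher in Bank1-/- instead. At 6 h the 2 members became 1 with the groups alone and with the 1.5-fold rule, 5 with weights, 0 with brightness and 4 without that library. At 24 h weights gave 2 in place of 0. In Bank1-/-, the 8 members called at 24 h against 0 h became 5 with brightness and 5 with the 1.5-fold rule, the 5 at 48 h against 0 h became 9 with weights and 8 without that library, and the 8 at 24 h against 6 h became 5 under scaling. In WT the 5 at 48 h became 8 with weights. Differences of responses became 3 with weights and 1 without that library at 6 h, and 2 with weights at 24 h. The share of all genes called is not given here for most of these fits or for the leave-one-out fits. These counts are therefore not read as results about the members.

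With the replicate block, the count between genotypes at 0 h was 0 (Ptpn6 at -0.56, adjusted p = 0.0508); the numbers share a label only, with same-numbered libraries correlating at -0.49 to 0.45 and 5 of 40 libraries best with their own number. Precision was limited by 5 arrays per group, by dim signal of Sla and Inpp5d at 6 h, and by the uneven brightness of the 6 h arrays.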

Other observations

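Of the 28 further relays tested, 3 differed between genotypes in their response at 6 h, where 9.34% of all genes did. Of the 18 further brakes tested, 0 did. These counts are near or below that share and are not read as a result about the pathway. With arrays scaled to their 75th percentile, 259 of all tested genes were called in this comparison, against 886 under quantile normalization. Values of the 3 relays under that scaling are not given here. The change from 0 h in Bank1-/- minus that in WT was 1.34 (adjusted p = 0.00993) for Malt1, the paracaspase of the NF-kB branch, 0.71 (adjusted p = 0.0111) for the adaptor gene Dapp1 and 0.87 (adjusted p = 0.0389) for the Ras exchange factor gene Rasgrp3. At 24 h it was 1.14 (adjusted p = 0.00526) for Rac2, the 1 relay called at that time, where 0.464% of all genes were. The Rac2 value includes its genotype difference at 0 h, -0.71, and Rac2 was not called between genotypes at 24 h. Without Bank1-/- 0 h replicate 5 the differences of responses were 1.00 for Malt1, 0.63 for Dapp1, 0.86 for Rasgrp3 and 1.14 for Rac2.

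The probes of Ptpn6 and of Prkcb parted over time, a pattern chosen after the values were seen and given without a test. The first Ptpn6 probe minus the second changed by 0.80 log2 units between 24 and 48 h in Bank1-/- and by 0.78 in WT, and the libraries of the 2 times did not overlap in either genotype. For Prkcb the first probe minus probe 3 changed by -0.83 between 0 and 48 h in Bank1-/- and by -0.62 in WT, again with no overlap.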
